A study of Mus musculus with 9 samples.

Results

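The angiopoietin and angiopoietin-like genes of the mouse were followed here as a set of 7: Angpt1, Angpt2, Angptl1, Angptl2, Angptl4, Angptl6 and Angptl7. They were taken by name from an RNA-seq table of 19769 genes, and they were selected on their names and on their values in the 4 RNA libraries, which were already known. Their difference between low-MYC and high-MYC cells is therefore given as a description, with no test. Angpt4, the remaining angiopoietin in the table, is given beside them, and Angptl8 is not analysed here.

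The RNA came from primary mouse embryonic fibroblasts (MEFs), cultured for at most 3 passages, in which both Myc alleles carried an Egfp fusion. Low-MYC and high-MYC cells were separated by flow cytometry on their GFP signal after 6 h with 20 µM MG-132, an inhibitor of the proteasome that both groups received. The sorted cells were then seeded overnight before the RNA was extracted. Each group had 2 technical replicates, so every statement on replicates below concerns the spread between technical replicates and not between cultures or embryos. Chromatin accessibility came from TACh-seq, in which chromatin was digested for 3 min with the nuclease Cyanase, of wild-type (WT) MEFs and of KOKD MEFs, which lack Fubp1 and received siRNA against Fubp2. The methods describe transfection of WT and Fubp1 knockout MEFs with siRNA against Fubp2 or with non-target siRNA (100 nM, 48 h), and which of these the WT samples received is not given in the sources used here. The labels of all 4 samples point to 1 table of read positions. The name of that table refers to a WT library but no column names one, so it is not known which of the samples its reads come from, and WT and KOKD cells were not compared. FUBP1 ChIP-seq of primary MEFs, crosslinked for 8 min, is used as a list of 166 peak positions, all on chromosome 15, and peaks elsewhere are not analysed here.

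Angiopoietins are secreted ligands of Tie2, the receptor tyrosine kinase encoded by Tek on endothelial cells. Angpt1 activates Tie2 and steadies vessels, whereas Angpt2 can block or activate it depending on context. The angiopoietin-like proteins share the coiled-coil and fibrinogen-like architecture but do not bind Tie2, and among them Angptl4 is best known as an inhibitor of lipoprotein lipase. Fibroblasts and other stromal cells are a common source of several of these proteins.

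RNA was measured as spike-in normalized FPK, that is fragments per kilobase of transcript divided by a score from ERCC transcripts added in proportion to cell number. The values are thus relative to the number of cells, and they can be compared between genes. They were higher in high-MYC cells for most genes: the median ratio of group means was 2.28, and Myc itself went from 9.81 and 9.86 to 20.3 and 20.5, a ratio of 2.07. Among 19769 genes, 92.5% had both high-MYC values above both low-MYC values. Among genes with a low-MYC mean above 0, 81.7% had a ratio of at least 2, and this share was 5.52% once the libraries had been brought to a common median. In these bulk libraries fewer cells of a type and less RNA per cell cannot be told apart.

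All 7 genes were detected in all 4 libraries, and 6 of them had both high-MYC values above both low-MYC values, against 92.5% of all genes. The ratio of group means was at least 2 for 5 of the 7, against 81.7% of all genes with a low-MYC mean above 0. With libraries at a common median, the ratio was at least 2 for 1 of the 7, Angptl7. The values of the 7 genes summed to a mean of 3.28 over the low-MYC libraries and of 17.1 over the high-MYC libraries. Angptl2 held 56.8% of this sum in low-MYC cells and 36.8% in high-MYC cells, whereas Angptl7 held 18.0% and 51.6%. Angptl4 held 21.9% and 10.5%.

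**Figure D1:**
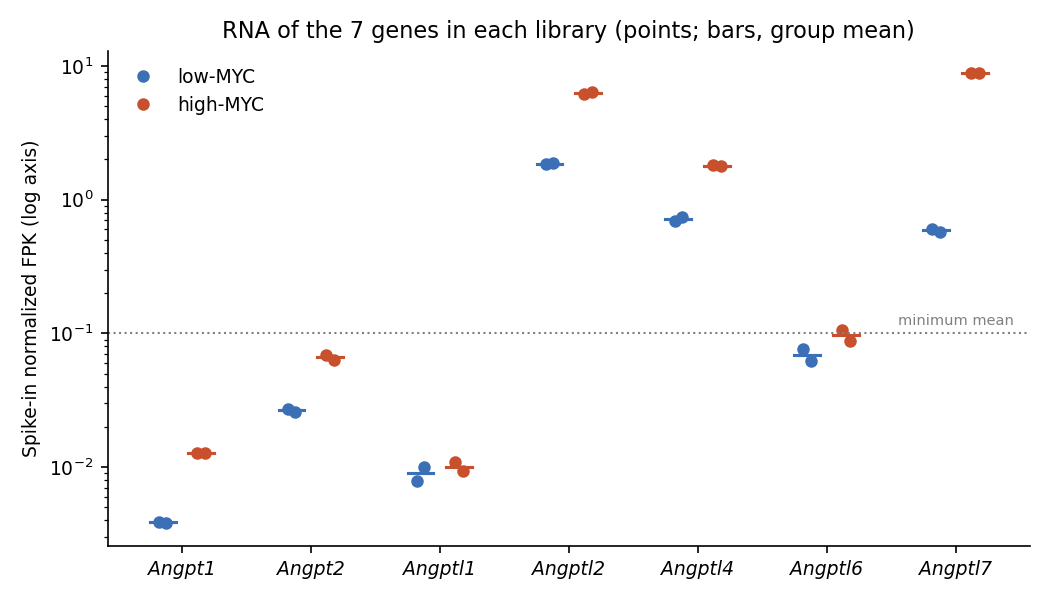
Spike-in normalized FPK (log axis) of the 7 genes in the 2 low-MYC libraries (blue) and the 2 high-MYC libraries (red), with a bar at each group mean and a dotted line at the minimum mean of 0.1. The groups overlap for Angptl1 alone, and Angptl7 moves from 0.588 to 8.82, above Angptl2 and Angptl4.

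Angpt1, the Tie2 agonist, lies on the minus strand at chr15:42424723-42676977 (GRCm38, GENCODE M21). It was listed at 0.00392 and 0.00381 in the low-MYC libraries and at 0.0127 and 0.0128 in the high-MYC libraries. The groups did not overlap and the ratio of their means was 3.30. These are very low levels, at ranks 16909 and 16618 of 19769 genes. From the steps between low values, a group's level corresponds to about 8 reads in the low-MYC group and 10 in the high-MYC group, and the counting interval of the ratio (95%) runs from 1.06 to 8.67. The noncoding gene Gm17473 on the opposite strand shares 737 exon bases with Angpt1 and has no value used here.

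Angpt2, the context-dependent Tie2 ligand, lies on the minus strand at chr8:18690263-18741562, inside Mcph1, which runs on the opposite strand. Its values were 0.0273 and 0.0257 in low-MYC and 0.0691 and 0.0637 in high-MYC cells, a ratio of 2.50 with no overlap. This ratio was close to that of its host Mcph1, whose ratio was 2.48, and both lay near the median ratio of 2.28 of all genes. Within each group Angpt2 exceeded Angpt1 in every library, by group means of 0.0265 against 0.00386 in low-MYC and 0.0664 against 0.0128 in high-MYC cells. Angpt4, the third Tie2 ligand, was as low as Angpt1, with group means of 0.00479 and 0.0150.

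Angptl7 showed the largest difference of the set. It encodes a secreted protein known from the cornea and from the outflow tissue of the eye, and it lies on the minus strand at chr4:148495183-148500460, inside Mtor, with which it shares no exon base. Its level was 0.601 and 0.576 in the low-MYC libraries and 8.81 and 8.82 in the high-MYC libraries. The replicates lay close together and the groups far apart, with a ratio of means of 14.99 and a ratio of 14.7 between the lowest high-MYC and the highest low-MYC value. By level, Angptl7 ranked 5723 of 19769 genes in low-MYC cells and 1373 in high-MYC cells. On the scale of log2(normalized FPK + 0.1) its difference was 3.70, and 3 of the 11870 genes tested had a larger one, namely Cxcl5 (4.28), Lyz2 (6.71) and Mpeg1 (3.80). The genes next below it were C1qc (3.65), C1qa (3.55) and Pf4 (3.36). This order depends on the pseudocount of 0.1. With a pseudocount of 0.01 Angptl7 was at 3.88, below C1qc (6.33) and C1qa (6.59). With libraries at a common median the log2 difference of Angptl7 was 2.60 and its ratio 6.62.

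The genes around Angptl7 differed less. Mtor, the kinase gene on the plus strand that surrounds Angptl7, went from 0.241 and 0.255 to 0.614 and 0.634, a ratio of 2.51 and a log2 difference of 1.06 (SE 0.05; limma, adjusted p = 1.5e-05). The coding gene Exosc10, which flanks Mtor, had a ratio of 2.29. Both ratios lay near the median ratio of 2.28 of all genes and below the 14.99 of Angptl7.

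Several genes that lay next to Angptl7 in the order of differences are markers of macrophages, and their levels are therefore given beside it. All 8 genes of a macrophage list were in the table, and 6 reached the minimum mean. The low-MYC mean of each of these 6 was under 0.1, at most 0.0861 (Lyz2). They thus passed only through the high-MYC group, which fixed their rise in advance, so no count of calls is given for this list. The summed level of the list was 0.0734 and 0.203 in the low-MYC libraries and 22.5 and 23.5 in the high-MYC libraries, where Lyz2, which encodes lysozyme, made up most of it with 18.0 and 18.9. C1qa and Adgre1 were listed at 0 in low-MYC replicate 1. In both low-MYC libraries Angptl7 alone (0.601 and 0.576) exceeded the summed macrophage list. C1qc, C1qa and Mpeg1 were also the 3 tested genes whose profile over the 4 libraries was closest to that of Angptl7, at Euclidean distances of 0.0607, 0.215 and 0.219 of mean-centred log2(normalized FPK + 0.1). Without the pseudocount they differed from it, with ratios of 229, 724 and 147 against 14.99. The part of macrophages in the level of Angptl7 was not tested.

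Angptl2, which encodes a secreted protein associated with inflammation and lies on the plus strand at chr2:33216069-33247717 inside Ralgps1, was the most abundant member in low-MYC cells. Its values were 1.85 and 1.87 in low-MYC and 6.13 and 6.44 in high-MYC cells. The groups did not overlap and the ratio of means was 3.38, above the median of 2.28. Its log2 difference of 1.70 was at percentile 98.9 of the genes tested, with 131 genes above it, and it was 0.56 after rescaling to a common median. Its host Ralgps1 was much lower, with group means of 0.0171 and 0.0345 and a ratio of 2.02. The tested genes with the closest profile were Scd2 (distance 0.0266), Socs3 (0.0317) and Selenoh (0.0369), but 54 genes lay within a distance of 0.1, so this neighbourhood was crowded, whereas 1 gene lay as close to Angptl7.

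Angptl4, the inhibitor of lipoprotein lipase, lies on the minus strand at chr17:33773750-33781830. Its values were 0.692 and 0.742 in low-MYC and 1.80 and 1.80 in high-MYC cells, a ratio of 2.51. The groups did not overlap, yet the log2 difference of 1.22 was inside the range that held 90% of the tested genes, from 0.59 to 1.35. After rescaling to the same median it was 0.14, so Angptl4 moved nearly as the bulk of the genes did.

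**Figure D2:**
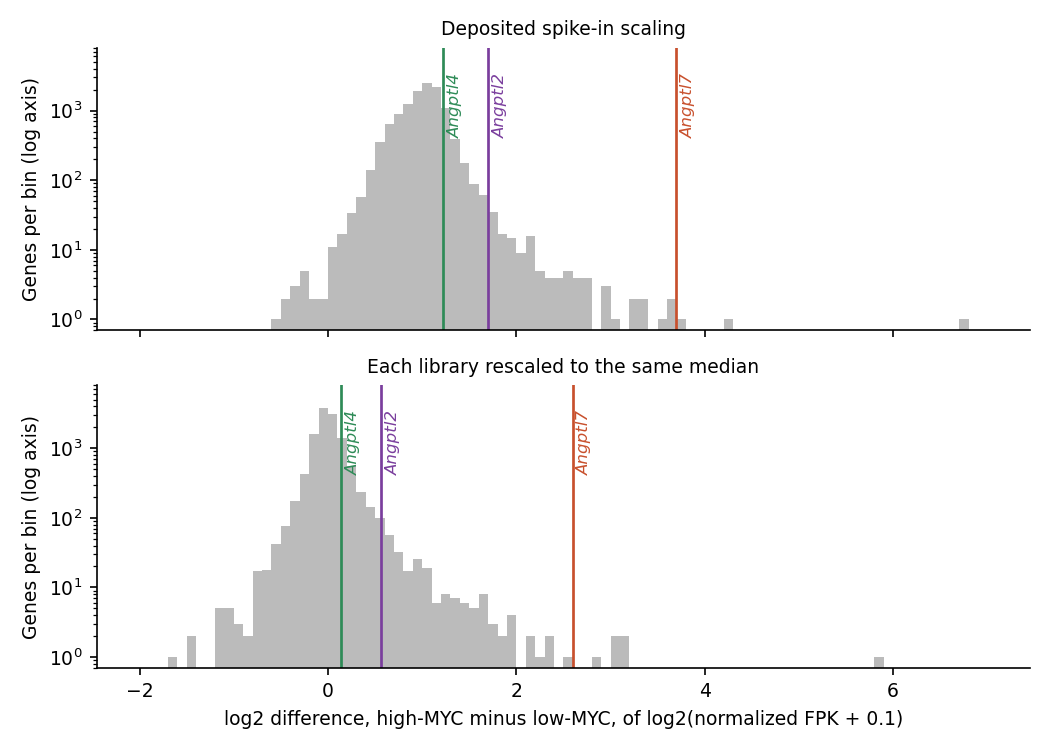
Number of tested genes (log axis) in bins of the log2 difference between high-MYC and low-MYC cells, with the deposited spike-in scaling (top) and after rescaling each library to the same median (bottom), and lines at the 3 members that passed the minimum mean. Rescaling shifts the median of all tested genes from 1.03 to about 0, leaves Angptl4 at 0.14 and Angptl2 at 0.56, and leaves Angptl7 at 2.60.

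Angptl6, a secreted factor studied for its effects on metabolism and vessels, lies on the minus strand at chr9:20873808-20879727. It was listed at 0.0766 and 0.0624 in low-MYC and 0.107 and 0.0883 in high-MYC cells, a ratio of 1.40 with a counting interval (95%) of 0.876 to 2.29. The groups did not overlap, but the lowest high-MYC value was only 1.15 times the highest low-MYC value. The libraries were made with a stranded kit. The 3′ end of Angptl6 shares 265 exon bases with A230050P20Rik on the opposite strand, whose ratio was 3.25. The sources used here do not say whether strand was used in the quantification, so reads of this stretch may have been assigned to either gene.

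Angptl1, whose product is known to restrain vessel growth, lies on the plus strand at chr1:156838562-156861078 inside Ralgps2. Its values were 0.00792 and 0.0101 in low-MYC and 0.0108 and 0.00932 in high-MYC cells. It was the member whose groups overlapped, with a ratio of 1.12 and a counting interval (95%) of 0.294 to 3.37 that rests on about 11 and 5 reads. At this depth a difference of Angptl1 within that interval was not detectable in either direction. Ralgps2 had a ratio of 2.22. After rescaling to the same median, Angptl1 and Angptl6 fell below 1, with ratios of 0.497 and 0.620, whereas the other 5 members stayed above 1.

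By level, the order in low-MYC cells was Angptl2, Angptl4, Angptl7, Angptl6, Angpt2, Angptl1 and Angpt1, and the 2 libraries of neighbouring genes did not overlap at any step. The last of these steps, from Angptl1 to Angpt1, rests on about 11 and 8 reads and is not resolved by counting. In high-MYC cells Angptl7 came first, followed by Angptl2, Angptl4, Angptl6, Angpt2, Angpt1 and Angptl1. The step between Angpt1 (0.0127 and 0.0128) and Angptl1 (0.0108 and 0.00932) rests on about 10 and 5 reads. The members Angpt1, Angpt2, Angptl1 and Angptl6 did not reach the minimum mean of 0.1 over the 4 libraries and were not part of the fit across genes, and 3 of the 7 passed.

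The receptors and partners of the family were taken from lists of 62 genes, of which 54 were in the table and 39 reached the minimum mean. Of these 39, 23 rose at least 2-fold in high-MYC cells (limma, adjusted p under 0.01), against 55.1% of all 11870 genes tested, and 0 fell, against 0.0253%. All 39 passed the test as higher at any fold. The 5th percentile of the log2 difference of all genes tested was itself 0.59, so this count does not set the lists apart. On the rescaled values 6 of the 39 were higher and 1 was lower at any fold, against 1.76% and 0.531% of all genes. Pirb and Lilrb4a, counted in the 6 and in the 23, reached the minimum mean only through the high-MYC group. The lists were also chosen with earlier results of these data known, so these counts are a description and not an enrichment. The median log2 difference of the 39 was 1.08, beside 1.03 for all genes tested.

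Among Tie receptors and signalling genes, 3 of 6 tested rose at least 2-fold, against 55.1% of all genes tested. The Tie2 receptor gene Tek was itself nearly silent, at 0.00827 and 0.00975 in low-MYC and 0.0213 and 0.0241 in high-MYC cells, and Tie1 is not analysed here. Svep1, which encodes an extracellular matrix protein that binds Tie1, had the largest difference of the 6 tested genes. It went from 0.294 and 0.316 to 0.997 and 1.07, a log2 difference of 1.49 (SE 0.06; limma, adjusted p = 1.1e-05). Dok2, which was too low to be tested, had a ratio of 4.74, beside 3.39 for Svep1. The phosphatase gene Ptpn11 rose by 1.22 on the log2 scale. Defining endothelial genes were near 0, with Pecam1 at no more than 0.00142, Cdh5 at no more than 0.00927 and Vwf at no more than 0.00568 in any library. The summed level of the 6 endothelial markers in the table was 0.174 and 0.177 in low-MYC and 0.287 and 0.333 in high-MYC cells, most of it Kdr.

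Among receptors, lipases and partners of the angiopoietin-like proteins, 8 of 9 tested genes rose at least 2-fold, against 55.1% of all genes tested. Pirb and Lilrb4a, counted in the 8, reached the minimum mean only through the high-MYC group, which fixed their calls in advance. Lpl, the lipoprotein lipase that Angptl4 inhibits, went from 0.254 and 0.275 to 0.628 and 0.641, and Angptl4 exceeded it in every library. Lipg, which encodes endothelial lipase, had a log2 difference of 1.59 (SE 0.06; limma, adjusted p = 1e-05). The integrin subunit gene Itgb1 and the cadherin gene Cdh11 rose by 1.08 and 1.11, and both fell below 0 after rescaling to the same median (-0.10 and -0.04) without passing the test there. Pirb and Lilrb4a, receptors of myeloid cells of which Pirb binds Angptl2, went from group means of 0.00121 and 0.00315 to 0.225 and 0.228, together with the macrophage markers above.

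Among regulators and co-targets of Angptl4, 8 of 13 tested genes rose at least 2-fold, against 55.1% of all genes tested. Hif1a, the oxygen-regulated transcription factor, had a log2 difference of 1.56 and Adm, a hypoxia-induced peptide hormone gene, of 1.47. Other hypoxia-induced genes of the list lay below the median of all genes, namely Bnip3 (0.94), Slc2a1 (0.81) and Ankrd37 (0.63), and Egln3, which was not tested, had a ratio of 1.14. Pdk4, like Angptl4 a target of the PPAR nuclear receptors, had 1.16, close to the 1.22 of Angptl4. The vascular growth factors and their receptors stood lower, with 2 of 9 at least 2-fold higher and a median of 0.67. Vegfa had a log2 difference of 0.60 (SE 0.04; limma, adjusted p = 4.4e-05) and Flt1 of 0.56, and after rescaling to the same median Vegfa was the single lower gene of all lists at -0.54 (limma, adjusted p = 0.0056). Vegfd was the highest of the list at 1.40. Among other genes with a fibrinogen-like domain, 2 of 3 tested rose at least 2-fold, namely Mfap4 (1.41) and Tnc (1.28), both matrix genes. The untested genes of this list with values were below the minimum mean. Their ratios of group means ran from 1.97 (Fibcd1) to 13.2 (Fcna), with Tnn at 13.0, beside 14.99 for Angptl7.

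**Figure D3:**
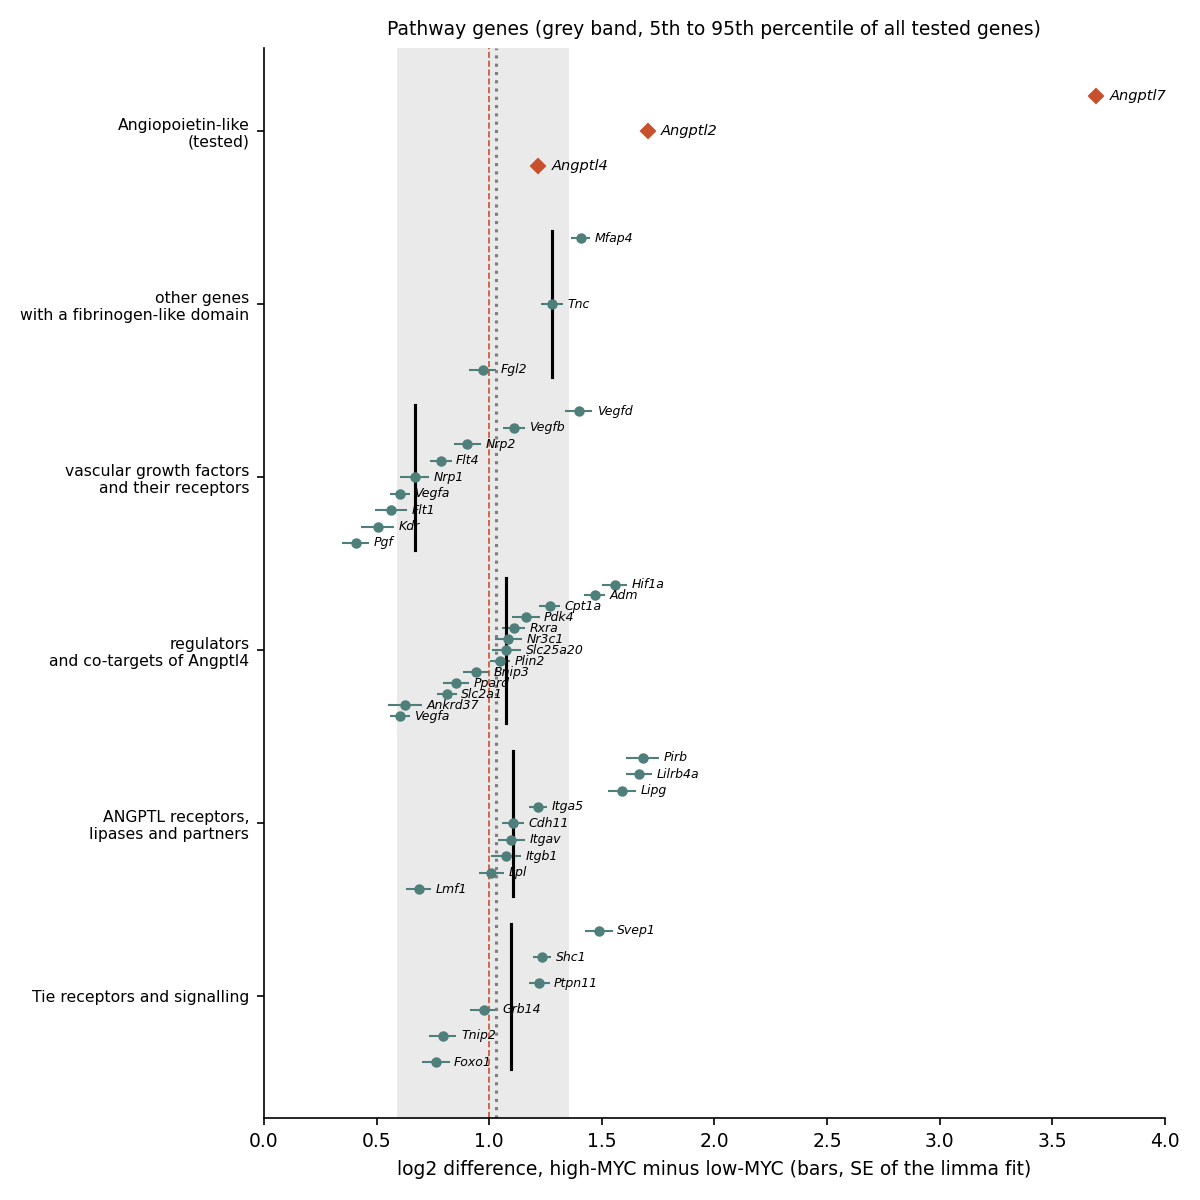
Log2 difference between high-MYC and low-MYC cells (points, with the SE of the limma fit) of the 39 tested pathway genes by list (Vegfa is in 2 lists), with a black bar at the median of each list and diamonds for Angptl2, Angptl4 and Angptl7. The grey band spans the 5th to 95th percentile of all tested genes, 0.59 to 1.35, the dotted line is their median and the dashed line is 2-fold. Most pathway genes lie in the band, Angptl2 lies above it and, on this scale, Angptl7 lies far above every tested gene of the lists. By plain ratios of group means, without the pseudocount of 0.1, Pirb (185) and Lilrb4a (72.3) exceeded Angptl7 (14.99). Fcna (13.2) and Tnn (13.0), which were not tested and are not drawn, came close to it.

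The cells expressed fibroblast genes in both groups. All 8 fibroblast markers rose at least 2-fold, with a median log2 difference of 1.53, and the largest were Lum (2.43) and Dcn (1.94), small proteoglycans of the matrix. After rescaling to the same median these were 1.33 and 0.89. On that scale 3 of the 8 markers passed the test as higher at any fold, against 1.76% of all genes tested. The median of the 8 was 0.37 there, and Vim was at -0.05. Of the other lists, 2 of 3 tested mural genes, 2 of 2 adipocyte genes and 2 of 5 tendon and cartilage genes rose at least 2-fold, against 55.1% of all genes tested, and the adipocyte genes Adipoq, Plin1 and Cidec are not analysed here. The part of these differences in the levels of Angptl2 and Angptl7 was not tested.

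TACh-seq addressed whether chromatin near the start sites of these genes was accessible to the nuclease. The table lists 4881417 aligned reads that lie in limited regions, so a gene without listed reads was not necessarily without reads in the experiment. Reads were counted by their middle within 1 kb of the annotated start site. Of 21938 protein-coding genes, 48.2% had at least 1 read, and of the 7 members 4 had reads.

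Angptl2 had 293 reads (exact Poisson interval 260 to 329, which covers counting error only), more than 94.0% of protein-coding genes. They peaked just upstream of the start, with 163 reads in the 500 bp before it and 78 in the 500 bp after it. Angpt1 had 144 reads (121 to 170), spread over a cluster of 4576 bp that covered the start. The start of the antisense gene Gm17473 lies 736 bp from that of Angpt1, so the 2 start regions cannot be told apart here. Angpt1, the lowest member by RNA in low-MYC cells, had more listed reads than any member but Angptl2 in this window. Within 2 kb it had 193, fewer than Angptl2 (336), Angptl4 (271) and Angptl6 (463).

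Angptl4 had 70 reads (54.6 to 88.4) within 1 kb, but 271 within 2 kb. Its cluster spanned 7459 bp and held 586 reads, with 1 maximum of 125 reads per 500 bp between 2 kb and 1.5 kb upstream and another of 173 reads between 2 kb and 2.5 kb downstream, in an intron. A further annotated transcript of Angptl4 starts 2687 bp downstream, and 263 reads lay within 1 kb of it. Angptl6 had 19 reads (11.4 to 29.7) within 1 kb, all downstream, and none within 500 bp. A cluster of 485 reads lay inside the gene, with its densest 100 bp centred 1287 bp downstream of the start in an exon.

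Angpt2, Angptl1 and Angptl7 had no listed read within 5 kb of the start. Angpt2 had a cluster of 127 reads in its gene body, near the start of a shorter annotated transcript 42015 bp downstream, where 123 reads lay within 1 kb. Angptl1 had no cluster of at least 10 reads within 50 kb, and the start of its host Ralgps2 had no listed read either. Angptl7 had no listed read in its 5278 bp gene body, and the edge of the nearest cluster, of 98 reads, lay 8675 bp upstream. The start of its host Mtor, 51849 bp away, had 235 reads.

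**Figure D4:**
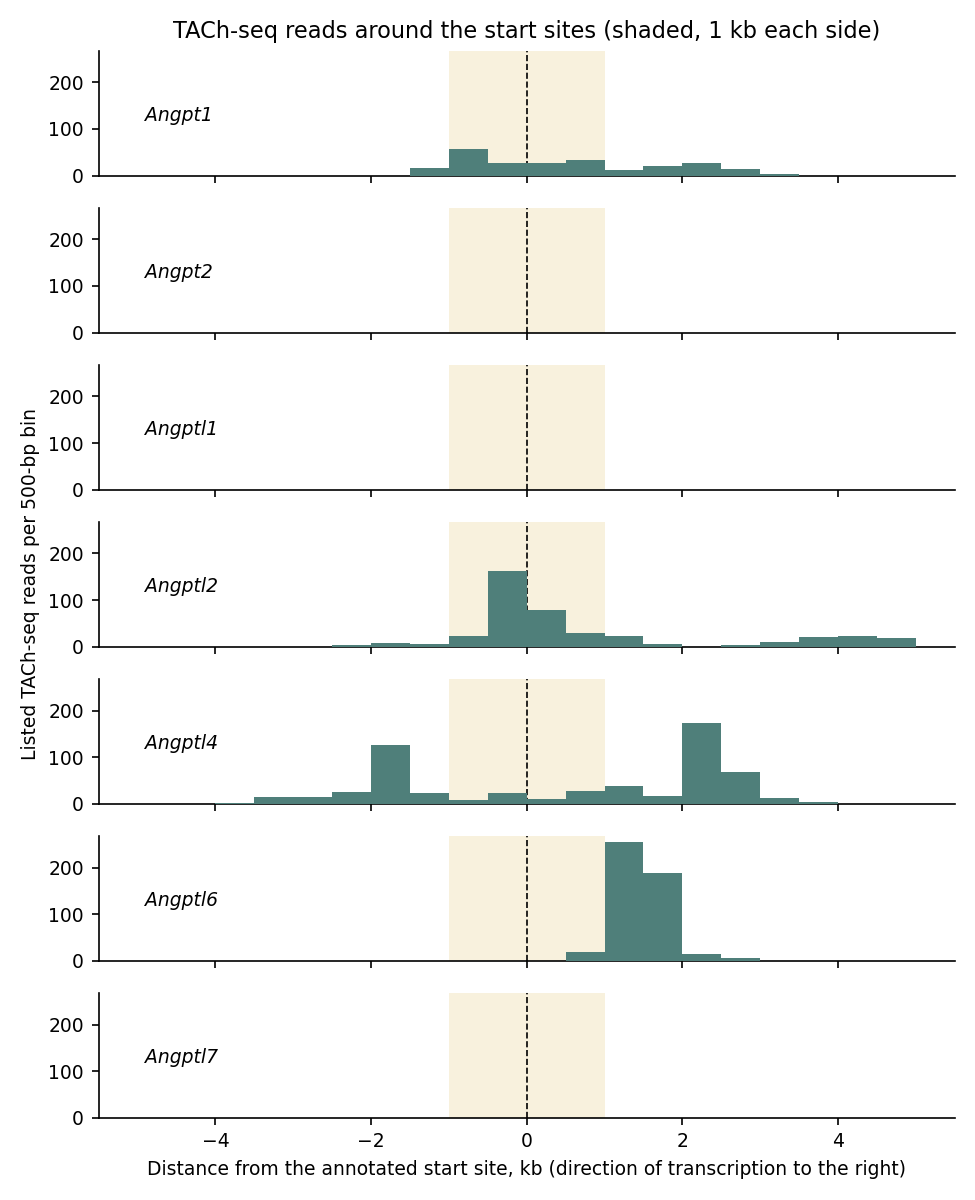
Listed TACh-seq reads per 500 bp from 5 kb upstream to 5 kb downstream of the annotated start site of each member, with transcription to the right and the 1 kb window shaded. Angptl2 peaks at the start, Angptl4 on both sides of it, Angptl6 downstream of it, and Angpt2, Angptl1 and Angptl7 have no listed read in the range.

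The level of Angptl7 was set beside that of other genes in each group. Of 5232 protein-coding genes with a low-MYC mean at least as high as that of Angptl7, 513 (9.80%) had no read within 1 kb, and of 1199 with a high-MYC mean at least as high, 105 (8.76%) had none. By the mean of the 4 RNA libraries, which for Angptl7 comes mostly from the high-MYC group, the share with reads was 19.5% for genes with a mean under 0.01, 46.2% from 0.01 to 0.1, 79.3% from 0.1 to 1, 90.2% from 1 to 10 and 90.5% above that. Among tested coding genes with a ratio of group means of at least 10, Angptl7 among them, 29 of 35 had no listed read. Of those with a ratio of at least 2, 14.9% had none. Genes near 0 in low-MYC cells enter the first class only through their high-MYC values. This share is therefore no yardstick for Angptl7, whose low-MYC mean was 0.588. The RNA came from sorted Myc-Egfp cells and the TACh-seq from other MEFs that were not sorted by MYC level, so the values stand side by side and no relation was tested.

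**Figure D5:**
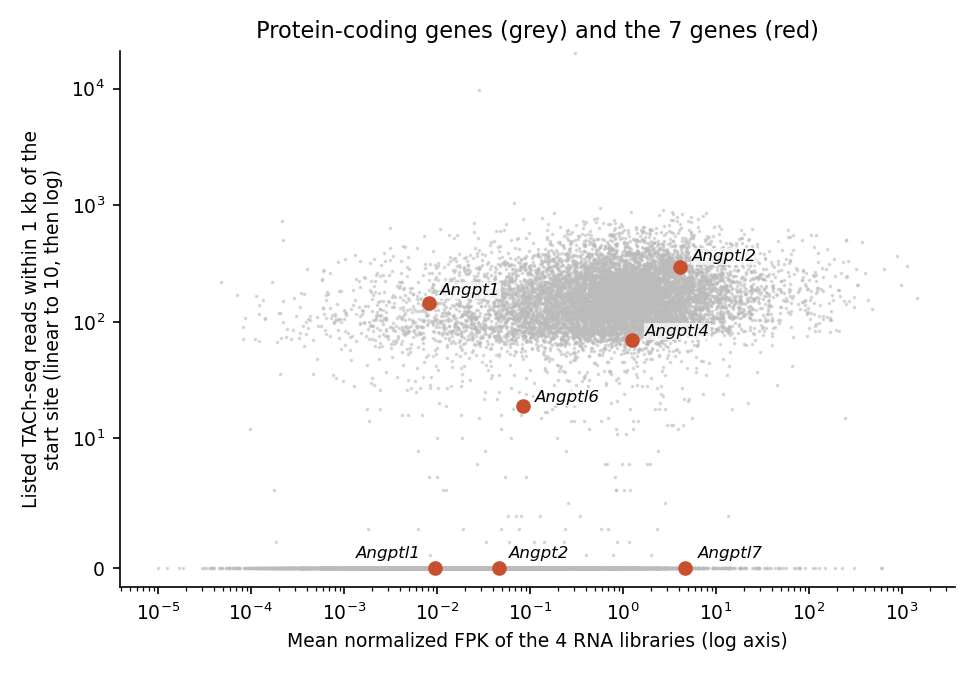
Listed TACh-seq reads within 1 kb of the start site (linear to 10, then log) against the mean normalized FPK of the 4 RNA libraries (log axis) for protein-coding genes (grey) and the 7 members (red). Angptl7 lies at 0 reads at a mean of 4.70 and Angptl2 at 293 reads at a mean of 4.07, and Angpt1 has 144 reads at a mean of 0.00831.

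Start-site sequences from RefSeq (GRCm38.p6, 250 bases before the start and 50 after it) were matched by symbol for 4 of the 7 members, namely Angptl1, Angptl2, Angptl6 and Angptl7. Those of Angptl2 (chr2:33215711-33216010, plus strand) and Angptl7 (chr4:148500413-148500712, minus strand) are shown because both were among the 3 most abundant members in each group and only Angptl2 had listed reads at its start. Both are written 5′ to 3′ with CpG dinucleotides, the letters CG, in capitals.
Angptl2: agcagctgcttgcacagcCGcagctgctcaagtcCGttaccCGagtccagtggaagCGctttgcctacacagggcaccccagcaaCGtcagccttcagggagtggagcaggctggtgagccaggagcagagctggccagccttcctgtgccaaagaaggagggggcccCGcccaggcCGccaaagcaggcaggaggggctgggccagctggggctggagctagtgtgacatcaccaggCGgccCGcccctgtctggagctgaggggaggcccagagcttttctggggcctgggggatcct
Angptl7: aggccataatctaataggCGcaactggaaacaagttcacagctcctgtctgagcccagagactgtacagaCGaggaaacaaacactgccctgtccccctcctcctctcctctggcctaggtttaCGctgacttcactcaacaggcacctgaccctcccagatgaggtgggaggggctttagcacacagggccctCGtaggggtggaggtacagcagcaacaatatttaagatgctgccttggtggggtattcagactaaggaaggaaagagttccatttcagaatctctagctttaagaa

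The Angptl2 sequence held 9 CpG dinucleotides and 66.7% G and C, and the Angptl7 sequence 4 and 51.3%. Angptl1 and Angptl6 held 6 and 5. The median over 27018 promoters of this length was 7, so 3 of the 4 members lay under it and Angptl2 above it. Reads were listed within 1 kb for 7.48% of promoters with fewer than 5 CpG, for 21.0% with 5 to 9, for 61.1% with 10 to 19 and for 81.3% with 20 or more. The E-box CACGTG, the sequence that MYC with its partner MAX binds, was searched on both strands and was in none of the 4 sequences, and 7.24% of all promoters held it. The TATA box letters TATAAA were in none of the 4 and in 14.2% of all, and CCAAT was in none of the 4 and in 37.9% of all. None of these motifs contains another, and the counts say only that these letters are not in these windows.

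Angpt1 is the member on chromosome 15, where the FUBP1 peaks were listed. None of the 166 peaks overlapped it or lay within 10 kb. The nearest peaks were chr15:42267001-42270800, 154 kb beyond its 3′ end, and chr15:43031801-43035400, 355 kb upstream of its start and inside Rspo2, the next coding gene. Rspo2 itself, a Wnt agonist, had a ratio of 4.46 between high-MYC and low-MYC cells, beside 3.30 for Angpt1. FUBP1 binding at the other members is not analysed here.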

How the data were processed

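Deposited tables of RNA-seq (MEFs sorted by MYC level), TACh-seq (WT and KOKD MEFs) and FUBP1 ChIP-seq (MEFs) were analysed. For RNA-seq, the authors trimmed low-quality bases, aligned reads to the mouse transcriptome with TopHat, quantified them with the Partek E/M algorithm, and divided by transcript length and by the ERCC score, and these deposited signal values were used as they are. Read depth is unknown, because no counts were used. The steps between low values estimate what 1 read is worth, but about 45% of low values of genes with 1 transcript came within 0.1 of a whole number, against 20% if they were evenly spread, so read numbers are approximate. For TACh-seq, the deposited table gives read positions, lengths and a mapping score per read from Bowtie2 (11 to 42), and SICER called the FUBP1 peaks, deposited as positions. Builds and tool names other than TopHat and Partek follow the submitters' processing notes (mm10).

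The members and lists were chosen with earlier results of these data known. log2(normalized FPK + 0.1) was compared with limma 3.58.1 (lmFit, eBayes with trend) in R 4.3.3 over 11870 genes (mean at or above 0.1), with Benjamini-Hochberg adjustment over all of them, and calls needed an adjusted p under 0.01. The members carry no test. Named genes are the members, the rest of the family, overlapping and flanking genes, pathway and marker lists, and the 3 tested genes closest in profile. Cxcl5, Lyz2, Mpeg1, C1qc, C1qa and Pf4 were named as neighbours of Angptl7 in the order of differences, after their values were seen. The fit was tested on simulated data in which most genes were unchanged. In these libraries most genes were higher in high-MYC cells, so that run does not gauge the calls made here. Read clusters were joined over gaps of up to 600 bp. Annotation was GENCODE M21, and the RNA table's gene ends lay 1 base past it. Coordinates are 1-based. Other steps used scipy 1.17.1, numpy 2.4.6 and pandas 2.3.3 under Python 3.11.15, with figures drawn by matplotlib 3.10.9. Alternatives covered the pseudocount, minimum mean, scaling, trend, replicate block, thresholds, single libraries, read windows and peak distance.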

Additional observations from a re-analysis of the deposited data

How the results depend on the processing

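The number of members at least 2-fold higher on the log2(normalized FPK + 0.1) scale was 3. It was 4 with a pseudocount of 0.01, 2 with a pseudocount of 1 (Angptl4 at 0.71), 1 after rescaling to the same median, 1 after rescaling to the same total and 5 for plain ratios of the means with no pseudocount, which does not dampen low values, and it stayed at 3 whichever library was left out. Relative to the shifted median, Angptl1 turned to -0.089 and -0.088 and Angptl6 to -0.31 and -0.30 under the 2 rescalings. When a library was left out, Angptl1 ranged from -0.0001 to 0.029. Angptl2, Angptl4 and Angptl7 stayed above 0 under every alternative run. The 23 pathway genes at least 2-fold higher became 31 with a pseudocount of 0.01, 6 with a pseudocount of 1, 2 after either rescaling, 36 at an adjusted p under 0.05 and 1.5-fold, and 22 to 25 when a library was left out. The count of lower pathway genes was 0 in the limma fit, also at an adjusted p under 0.05, as the lowest of their log2 differences was 0.41. It became 1 after rescaling to the same median and 2 after rescaling to the same total. Under these rescalings Itgb1 was -0.10 and -0.085, Cdh11 -0.036 and -0.021, Vegfa -0.54 and -0.53, Flt1 -0.45 and -0.44, Slc2a1 -0.32 and -0.31, Bnip3 -0.14 and -0.13, and Ankrd37 -0.27 and -0.25.

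The same replicate number did not pair the libraries, as the correlation of their deviations was 0.081. With a replicate block the pathway counts were 23 and 0, and all genes gave 6556 at least 2-fold higher and 5 lower, against 6540 and 3. Leaving out a library left an arm with 1 library, which was assumed to vary like the other group. The 4 members with TACh-seq reads became 3 within 500 bp (Angptl6 at 0) and 5 when any annotated transcript start was used (Angpt2 at 123). With 2 technical replicates per group and an unknown depth, low members are limited by counting.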
